A study of Mus musculus with 6 samples.

Results

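NK cells were examined in single-cell RNA-seq libraries of orthotopic pancreatic tumours of KPC cells, which are cancer cells derived from a mouse model of pancreatic cancer. A barcode was called an NK cell when it held at least 2 unique molecular identifiers (UMIs, each counted as 1 RNA molecule) of Ncr1 and Klrb1c together, which encode the NK receptors NKp46 and NK1.1, and no UMI of Cd3d, Cd3e or Cd3g. It also had to have at least 500 UMIs, over 200 genes and under 10% mitochondrial UMIs, with C1qa, C1qb and C1qc under 0.2% and S100a8 and S100a9 under 1% of its UMIs, and at most 1 UMI of Krt8 and Krt18. This rule found 147 NK cells among 74546 barcodes that passed the quality limits. The cells were thus chosen by the measured levels of these genes, so Ncr1, Klrb1c and the other genes of the rule are described and never tested.

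NK cells are innate lymphocytes that kill target cells without prior sensitisation. They weigh signals from activating receptors such as NKG2D against inhibitory receptors that read MHC class I, pass activating signals through adaptors such as DAP12, and kill by releasing perforin and granzymes from granules. In the mouse they depend on the transcription factors T-bet and Eomes and on IL-15, and in tumours they are found beside T cells and related innate lymphocytes that share many of their genes.

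The hosts were C57BL/6 mice aged 6 to 8 weeks with an intact immune system, and tumours were taken 4 weeks after KPC cells had been injected into the pancreas. The injected cells were the vector control (OE-Vector) or overexpressed MLKL (OE-MLKL), MLKL being the protein that ruptures the membrane in necroptosis. The construct was in the cancer cells and not in the NK cells, which belong to the host. A count matrix was analysed for 1 library labelled OE-Vector and 3 labelled OE-MLKL, and 2 further OE-Vector libraries were not analysed here. By the study's methods the cells were loaded tumour by tumour, so each library is taken as 1 tumour, and the spread between tumours behind each p-value of the group comparison comes from OE-MLKL alone.

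The 4 libraries held between 150591289 and 169978362 UMIs and between 15382 and 23063 barcodes of passing quality. NK cells numbered 37 in OE-Vector 1, 1 in OE-MLKL 1, 21 in OE-MLKL 2 and 88 in OE-MLKL 3. Their summed UMIs were 163028, 5533, 77886 and 256566 in that order, which is kept below wherever 4 values are given in library order, so the values of OE-MLKL 1 rest on a single cell, and the precision for rare genes is set by these sums. Mlkl itself stood at 15.7 CPM (UMIs of a gene scaled to a sum of 1000000 per library and class) in Krt8 or Krt18 barcodes of OE-Vector 1, against 8.55, 12.6 and 19.8 CPM in OE-MLKL 1, 2 and 3. These 3′ reads therefore did not set the labelled groups apart. Whether the construct carries the 3′ end that such libraries read is not given in the sources used here, and every direction below rests on the labels. NK cells held 2 Mlkl UMIs in OE-Vector 1 and 0 in the libraries labelled OE-MLKL, of which the one with the most NK cells still allows up to 14.4 CPM (upper 95% Poisson limit). No NK barcode occurred as an NK cell in more than 1 library, and 2 NK barcodes of OE-MLKL 3 also passed quality in OE-Vector 1.

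Granzymes, serine proteases that perforin delivers into target cells, were spread unevenly over the NK cells. Gzma lies at chr13:113093825-113100981 (GRCm38, minus strand), away from the cluster on chromosome 14 that holds Gzmb, Gzmc, Gzmd, Gzme, Gzmf and Gzmg beside the mast cell proteases Cma1 and Mcpt2. Within that cluster Gzmc lies at chr14:56231441-56234656, Gzmg at chr14:56156582-56159579, Gzmd at chr14:56129556-56132608 and Gzme at chr14:56117626-56120625. In OE-Vector 1, Gzmc had a UMI in 10 of 37 NK barcodes, Gzmd in 4, and Gzme and Gzmg in 3 each. The 200 bases before the RefSeq start of these genes are shown, because most UMIs of Gzmc, Gzmd, Gzme and Gzmg lay in a few NK cells while Gzma was found in most. Gene positions are those of GENCODE, and the RefSeq start of Gzmd lies inside its GENCODE span, so that its window takes in the first bases of that span. The windows were read 5′ to 3′ from RefSeq annotation of GRCm38.p6 on the minus strand, and capitals mark each match to ACCACA, the core letters of the RUNX motif, on either strand.
Gzma, chr13:113100982-113101181: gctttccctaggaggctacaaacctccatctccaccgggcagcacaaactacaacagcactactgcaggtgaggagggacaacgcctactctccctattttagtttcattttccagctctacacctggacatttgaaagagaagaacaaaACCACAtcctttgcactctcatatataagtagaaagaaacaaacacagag
Gzmc, chr14:56234658-56234857: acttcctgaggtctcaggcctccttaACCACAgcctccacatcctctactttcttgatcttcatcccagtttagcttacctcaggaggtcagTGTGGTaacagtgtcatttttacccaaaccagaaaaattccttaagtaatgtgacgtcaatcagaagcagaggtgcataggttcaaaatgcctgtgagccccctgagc
Gzmd, chr14:56132594-56132793: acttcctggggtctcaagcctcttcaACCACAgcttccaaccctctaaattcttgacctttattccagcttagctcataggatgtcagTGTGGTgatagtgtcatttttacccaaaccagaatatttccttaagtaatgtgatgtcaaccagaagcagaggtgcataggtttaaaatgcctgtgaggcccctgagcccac
Gzme, chr14:56120626-56120825: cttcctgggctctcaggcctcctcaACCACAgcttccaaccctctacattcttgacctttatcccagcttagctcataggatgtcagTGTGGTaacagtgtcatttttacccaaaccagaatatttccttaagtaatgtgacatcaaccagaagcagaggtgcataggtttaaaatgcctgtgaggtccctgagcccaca
Gzmg, chr14:56159580-56159779: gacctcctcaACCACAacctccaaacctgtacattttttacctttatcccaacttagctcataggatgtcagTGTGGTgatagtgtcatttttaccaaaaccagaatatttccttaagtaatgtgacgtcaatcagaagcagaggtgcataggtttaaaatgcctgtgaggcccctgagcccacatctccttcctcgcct

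Gzmc, Gzmd, Gzme and Gzmg held 2 matches each and Gzma held 1, where 11.2% of 32851 upstream windows of the same length held at least 1. None of these windows held GGTGTG, the core letters of the T-box motif that T-bet and Eomes bind, which 13.3% of all windows held, or TGANTCA, the AP-1 letters, which 5.48% held. A match is a run of letters and not a binding site. The upstream windows of Gzmd and Gzme were identical at 94.0% of aligned bases and those of Gzmc and Gzmd at 85.3%. The last 300 bases of the Gzmd, Gzme, Gzmf and Gzmg transcripts, from which 3′ reads come, were 82.4% to 88.2% identical in pairs, so counts of these 4 genes are uncertain among themselves. Gzmc was 48.7% to 53.7% identical to them there.

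NK cells made up 0.241% of quality barcodes in OE-Vector 1 (95% exact binomial interval 0.169% to 0.331%). The share was 0.00542% in OE-MLKL 1 (0.000137% to 0.0302%), 0.0911% in OE-MLKL 2 (0.0564% to 0.139%) and 0.499% in OE-MLKL 3 (0.400% to 0.614%). The intervals of the 4 libraries did not overlap each other, and those labelled OE-MLKL lay on both sides of OE-Vector 1. These intervals cover counting error only. The OE-MLKL mean was 0.199% ± 0.264 (SD, n = 3), and the difference of -0.0420 percentage points gave p = 1 in an exact two-sided permutation test, which cannot go below 0.25 with 1 library against 3. As a share of NK cells and T cells together, the values were 4.05%, 0.211%, 3.91% and 11.1% in the same order, and the mean difference was then 1.02 percentage points in the other direction. Among quality barcodes the difference was 0.0545 percentage points when OE-MLKL 1 was left out, 0.0117 when OE-MLKL 2 was and -0.192 when OE-MLKL 3 was. The libraries differed in NK cell share by more than counting error, and no difference between the labelled groups was detectable.

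**Figure D1:**
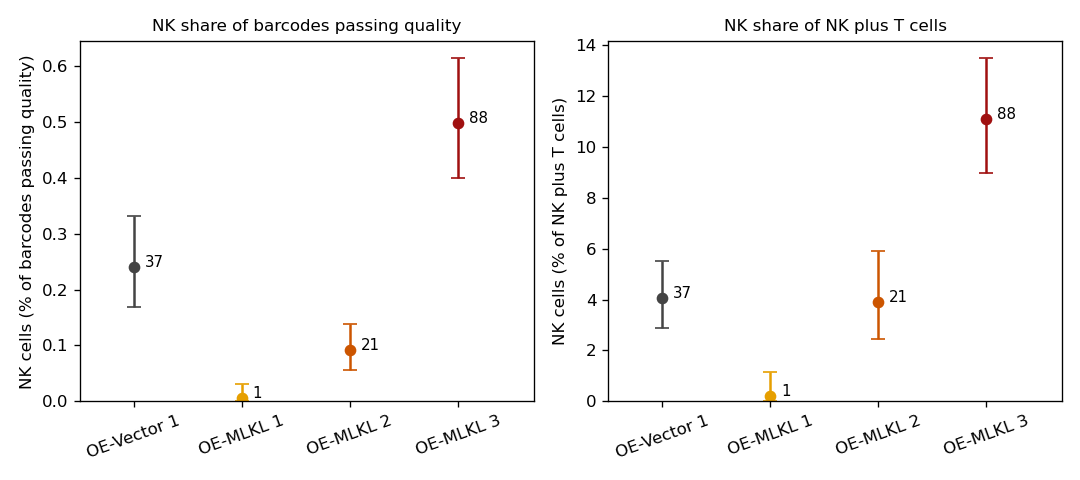
NK cells as a share of quality barcodes (left) and of NK cells and T cells together (right), in percent, in each of the 4 libraries, with 95% exact binomial intervals. OE-MLKL 1 holds 1 NK cell and OE-MLKL 3 holds 88, and OE-Vector 1 with 37 lies between them.

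The position of the limit mattered for the number of cells. Of the 147 NK cells, 57 held exactly 2 receptor UMIs, 44 held 3 and 46 held 4 or more, with Klrb1c found in 141, Ncr1 in 99 and both in 93. Just outside the limit, 100 barcodes passed every other condition with 1 receptor UMI. Another 18 barcodes were left out for 1 Cd3 UMI and 71 for 2 or more. Nkg7, which encodes a granule membrane protein and is not in the rule, stood at 1474, 864, 647 and 749 CPM in library order in barcodes with 1 receptor UMI. It stood at 1182, 1374 and 1191 CPM in those with 2, in library order without OE-MLKL 1, which had 0 such barcodes, and at 2024, 1446, 1012 and 1301 CPM in library order in those with 3 or more. Barcodes with 1 receptor UMI were thus above those with 2 in OE-Vector 1 and below them in OE-MLKL 2 and OE-MLKL 3. In each library they lay far above barcodes with 0 receptor UMIs, which held between 8.05 and 18.5 CPM.

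The label NK cell was checked against genes that the rule did not use. Nkg7 was found in 46.3% of NK cells after every cell had been thinned to 500 UMIs, against 0.36% of neutrophils and 0.38% of C1q macrophages, cell types that should lack it, whose shares give the level of free RNA and counting noise. It was found in 50.3% of thinned CD8 T cells and 30.0% of Cd8-negative T cells, so it does not set NK cells apart from T cells. Gzma was found in 63.3% of thinned NK cells, in 21.3% of CD8 T cells and in 0.57% of neutrophils. Before thinning these NK cell shares were 95.2% for Nkg7 and 76.2% for Gzma, at a median of between 2680.5 and 5533 UMIs per NK cell in the 4 libraries.

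Klre1, which encodes a lectin-like receptor of the NK gene complex, was found in 18.4% of thinned NK cells, 3.23% of CD8 T cells and 1.16% of Cd8-negative T cells. Eomes, the lineage transcription factor, was found in 10.9%, 1.72% and 0.18%. Tbx21, which encodes T-bet, was found in 2.72% of NK cells (95% exact interval 0.746% to 6.82%) and 1.99% of CD8 T cells, and so did not separate these classes at this depth. Prf1, which encodes perforin, was found in 23.8%, 8.46% and 1.34%. For Gzmb the order was different, with 19.7% of NK cells, 29.6% of CD8 T cells and 10.8% of Cd8-negative T cells.

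Markers of other cell types were mostly low, apart from some genes of the type 1 innate lymphoid and resident list, which the rule does not use. Other members of that list were low. Cd200r1 and Zfp683 had 3 UMIs each in all NK cells, and Cxcr6 had a UMI in 5, 0, 1 and 8 cells in library order. Before thinning, Itga1 of that list had a UMI in 57 of 147 NK cells (38.8%) and Il7r in 27 (18.4%), against 56 (38.1%) for Eomes. Whether the gate holds type 1 innate lymphoid cells was not tested. Trac, the T cell receptor alpha constant gene, was found in 5 of 147 NK cells (3.40%) before thinning, against 81.7% of CD8 T cells and 73.7% of Cd8-negative T cells. At 500 UMIs it was found in 0 of 147 NK cells (exact 95% interval up to 2.48%, for cells with a UMI at that depth), 22.0% of CD8 T cells and 25.8% of Cd8-negative T cells. The defining T cell genes Cd5 and Cd6 had 0 UMIs in all NK cells, as did Il22, Il23r and Il17a of other innate lymphoid cells and Ms4a1 of B cells, and 0 of their 503013 UMIs allows a level of up to 5.96 CPM. Other genes of these lists were present. Cd79a of B cells had 4 UMIs, all in OE-MLKL 2, which is 7.95 CPM over all NK cells against 0.249 CPM in CD8 T cells, and Ighm stood at 123 against 92.7 CPM and Igkc at 61.6 against 45.1 CPM. Of the innate lymphoid list, Gata3 stood at 79.5 against 42.8 CPM, and Il13 had 2 UMIs, Il5 1 and Il17rb 1. The summed macrophage list was between 0.0542% and 0.291% of NK cell UMIs and the summed neutrophil list between 0.0723% and 0.243%, with the highest value of each in OE-MLKL 3. The summed T cell list was between 0.0663% and 0.127%, and Trbc1 and Trbc2, whose unrearranged transcripts NK cells are known to make, were among its genes. Trbc1 stood at 481 CPM over all NK cells, against 513 CPM in CD8 T cells and 401 CPM in Cd8-negative T cells. It thus did not set these classes apart, while Trbc2 stood at 213 CPM against 1050 and 1059 CPM. The part of these genes in the results below was not tested, except for the mast cell genes described with them.

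**Figure D2:**
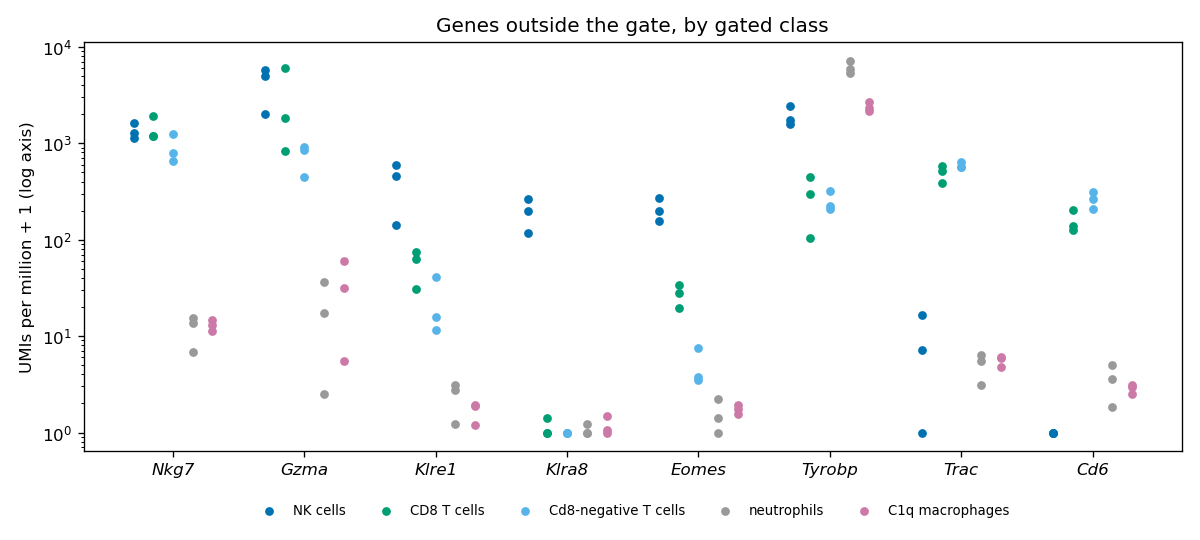
Levels of 8 genes (CPM + 1, log axis) in NK cells, CD8 T cells, Cd8-negative T cells, neutrophils and C1q macrophages, with 1 point for each of the 3 libraries that hold more than 1 NK cell. Klre1, Klra8 and Eomes are highest in NK cells in each library shown, Tyrobp is high in NK cells and myeloid cells, and Trac and Cd6 are higher in both T cell classes than in any other class.

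NK cells fell into groups by which granzyme they held. One OE-Vector barcode rich in mast cell genes, described with the group comparison, was left out of this account. Of the other 146 NK cells, 100 (68.5%) held at least 3 UMIs of Gzma and fewer than 3 of Gzmc, 10 held at least 3 of Gzmc and fewer than 3 of Gzma, 3 held at least 3 of both and 33 held fewer than 3 of both. Gzma and Gzmc were chosen for this account after their values had been seen, so it is a description with no test. The median depth was 3066 UMIs in cells with neither, 2574.5 in cells with Gzma only and 4986 in cells with Gzmc only. Cells with neither were deeper than those with Gzma only in OE-MLKL 2 (3234 against 2362) and OE-MLKL 3 (3002 against 2551) and shallower in OE-Vector 1 (2667 against 2937).

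The libraries differed in these patterns. OE-Vector 1 had 26 cells with Gzma only, 6 with Gzmc only, 1 with both and 3 with neither. OE-MLKL 2 had 10, 4, 2 and 5, and OE-MLKL 3 had 63, 0, 0 and 25. Cells with Gzmc were thus found in OE-Vector 1 and in OE-MLKL 2, and the 8 Gzmc UMIs of OE-MLKL 3 came to 3 in none of its cells. The single NK cell of OE-MLKL 1 held Gzma only.

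Some other genes differed between these cells in OE-MLKL 3. In that library Il7r, which encodes the IL-7 receptor chain found on innate lymphoid and immature NK cells, had a UMI in 14 of 25 cells with neither granzyme and in 2 of 63 cells with Gzma only. Xcl1, which encodes a chemokine that attracts cross-presenting dendritic cells, had a UMI in 14 of 25 and 13 of 63. In OE-MLKL 2 the counts with neither granzyme and with Gzma only were 0 of 5 and 3 of 10 for Il7r and 0 of 5 and 1 of 10 for Xcl1, and in OE-Vector 1 they were 1 of 3 and 0 of 26 for Il7r and 1 of 3 and 11 of 26 for Xcl1. Gzmb went the other way in OE-MLKL 3, with 6 of 25 and 33 of 63. Itga1, which encodes the CD49a integrin of tissue-resident and type 1 innate lymphoid cells, had a UMI there in 15 of 25 and 29 of 63. NK genes lay closer together in OE-MLKL 3, in the same order of cells. Eomes had a UMI in 7 of 25 and 22 of 63, Klre1 in 16 and 44, Klrk1 in 16 and 45, and Nkg7 in 23 and 59.

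In OE-Vector 1, Itga1 had a UMI in 5 of 6 cells with Gzmc only, 2 of 3 with neither granzyme and 2 of 26 with Gzma only. Gzmd had a UMI in 3 of 6 cells with Gzmc only and in 0 of 26 with Gzma only. Cells with Gzmc only were deeper, with a median of 4986 UMIs against 2937 in cells with Gzma only, and a cell without a UMI may still express the gene. A few cells underlie each of these counts, and cells of 1 library are not replicates.

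**Figure D3:**
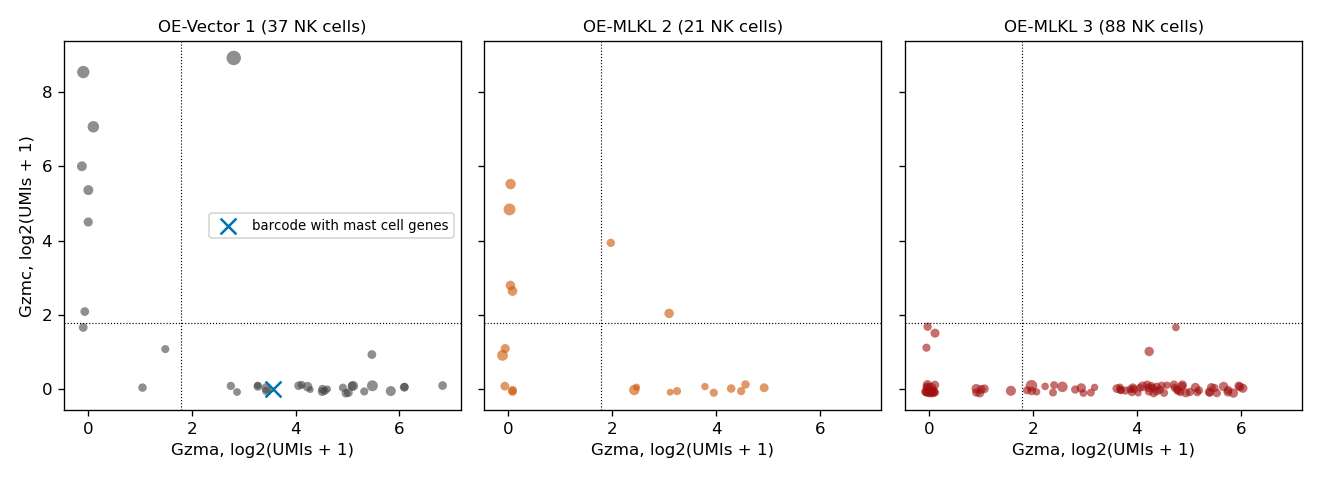
Gzma and Gzmc in each NK cell of OE-Vector 1, OE-MLKL 2 and OE-MLKL 3 (log2 of UMIs + 1, with a small jitter), 1 panel per library. Point size rises with UMI depth, and a cross marks the barcode rich in mast cell genes. The single NK cell of OE-MLKL 1 is not shown. Dotted lines separate fewer than 3 from at least 3 UMIs, and only 3 cells lie above both.

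The effect of MLKL in the cancer cells on the NK cells was asked by comparing summed NK cell counts between the libraries labelled OE-MLKL and OE-Vector 1. Of 3262 genes tested, 15 (0.46%) passed an adjusted p of 0.05 in edgeR's quasi-likelihood test, all of them lower in OE-MLKL, and 82 had an unadjusted p under 0.05. The genes were 9 mast cell genes, Gzmc, Gzmd, Gzme and Gzmg, Serpinb1a and Pclaf. Their UMIs lay mainly in 3 deep barcodes of OE-Vector 1, so the calls do not describe the 37 cells of that library. With at least 3 receptor UMIs required, 0 of 2147 genes passed in edgeR and 63 had an unadjusted p under 0.05. The level of Gzmc was then 7125, 0, 1844 and 29.8 CPM in library order, against 7023, 0, 1322 and 31.2 CPM in all NK cells, so its gap remained while its call was lost.

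The mast cell genes came from 1 barcode. Mcpt2, which encodes a chymase of mucosal mast cells, had 806 UMIs in OE-Vector 1 and 0 in each of the 3 libraries labelled OE-MLKL, which is at least 560-fold higher in OE-Vector 1 against a floor of 3 UMIs over the OE-MLKL libraries. A single OE-Vector barcode with 14919 UMIs, 1 UMI of Ncr1 and 1 of Klrb1c held 805 of those 806. The same barcode held all 373 Mcpt1, 238 Tpsb2, 145 Cpa3, 81 Mcpt4, 25 Fcer1a, 23 Tpsab1 and 15 Il1rl1 UMIs, together with 194 of 205 Cma1, 26 of 28 Serpinb1a and 25 of 33 Pclaf UMIs. These genes encode mast cell proteases, the IgE receptor alpha chain, the IL-33 receptor, a protease inhibitor of myeloid cells and a factor of DNA replication, and they account for 11 of the 15 calls. In the whole libraries, barcodes with at least 5 UMIs of Cpa3, Mcpt4, Tpsb2 and Fcer1a numbered 47, 10, 4 and 21 in library order, and this was the only one of them with a receptor UMI. The barcode also held 32 Tyrobp, 10 Gzma, 5 Nkg7, 2 Klre1, 2 Prf1, 1 Klrk1 and 0 Eomes UMIs. It stands at the limit of the rule, and its mast cell genes go against the label NK cell. Whether it held RNA of more than 1 cell was not tested.

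Without this barcode, 4 of 3158 genes (0.127%) passed, all lower in OE-MLKL: Gzmc, Gzmd, Gzme and Gzmg. Gzmc had 1145, 0, 103 and 8 UMIs in library order, with a log2 fold change of -3.92 ± 0.89 (SE, edgeR adjusted p = 0.00753). Gzmd had 639, 0, 6 and 0 UMIs and a log2 fold change of -7.40 ± 1.16. For Gzmg, 411, 0, 3 and 0 UMIs gave -7.91 ± 1.29, and for Gzme 165, 0, 9 and 0 UMIs gave -4.81 ± 1.07. OE-Vector 1 was the highest of the 4 libraries for each, and OE-MLKL 2 held nearly all the remaining UMIs. Gzmc lost its call when OE-MLKL 1, with its single NK cell, was also left out, and under a wider gate that took barcodes with 1 receptor UMI. With all NK cells, DESeq2 called none of these 4 genes, nor did edgeR when Cd3 UMIs were allowed. Gzme was not called in edgeR when OE-MLKL 3 was left out. Gzmf, whose counts are uncertain against those of Gzmd, Gzme and Gzmg, was highest in OE-MLKL 2, with 12, 0, 41 and 0 UMIs in library order. It stood there at 526 CPM against 73.6 CPM in OE-Vector 1, and 1 barcode held 38 of those 41 UMIs. With all NK cells Gzmf did not pass in edgeR (log2 fold change 1.45 ± 1.02), while limma-voom called it lower in OE-MLKL.

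These 4 genes also rested on few cells. The deepest NK barcode, with 22254 UMIs and 2 of Klrb1c, held 542 of 639 Gzmd, 408 of 411 Gzmg, 154 of 165 Gzme and 482 of 1145 Gzmc UMIs of OE-Vector 1, together with 184 of 307 Gzmb UMIs. It had 6 UMIs of Klre1, 5 of Eomes and 2 of Nkg7, 0 of Ncr1 and of Klrk1, and 107 of the 165 Spp1 UMIs of its library, Spp1 being a gene of the cancer cell list. Another OE-Vector barcode of 11884 UMIs held 400 of the Gzmc UMIs. With the 4 barcodes over 10000 UMIs left out, an alternative chosen after seeing the data, none of the 15 genes passed, and Cenpf was the only gene called. Gzmc then stood at 2308 CPM in OE-Vector 1, 1110 CPM in OE-MLKL 2 and 31.2 CPM in OE-MLKL 3, and Gzmd at 140, 88.8 and 0 CPM. Gzme and Gzmg were then higher in OE-MLKL 2, at 133 against 43.9 CPM and 44.4 against 17.5 CPM. These levels rest on 9 against 5 UMIs and 3 against 2 UMIs, and the 95% Poisson intervals overlapped for both genes. OE-Vector 1 remained above OE-MLKL 2 for Gzmc (95% Poisson intervals 2037 to 2604 and 873 to 1392 CPM), for Gzmb (1070 against 252 CPM) and for Prf1 (860 against 207 CPM). Each gap was beyond counting error, but a single OE-Vector cell of 9120 UMIs held 130 of the 263 Gzmc UMIs left. The intervals treat the UMIs of a cell as independent, so the Gzmc gap again leaned on few cells. OE-MLKL 3 was the lowest of these 3 libraries for Gzmc but not for Gzmb or Prf1, at 401 and 612 CPM.

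**Figure D4:**
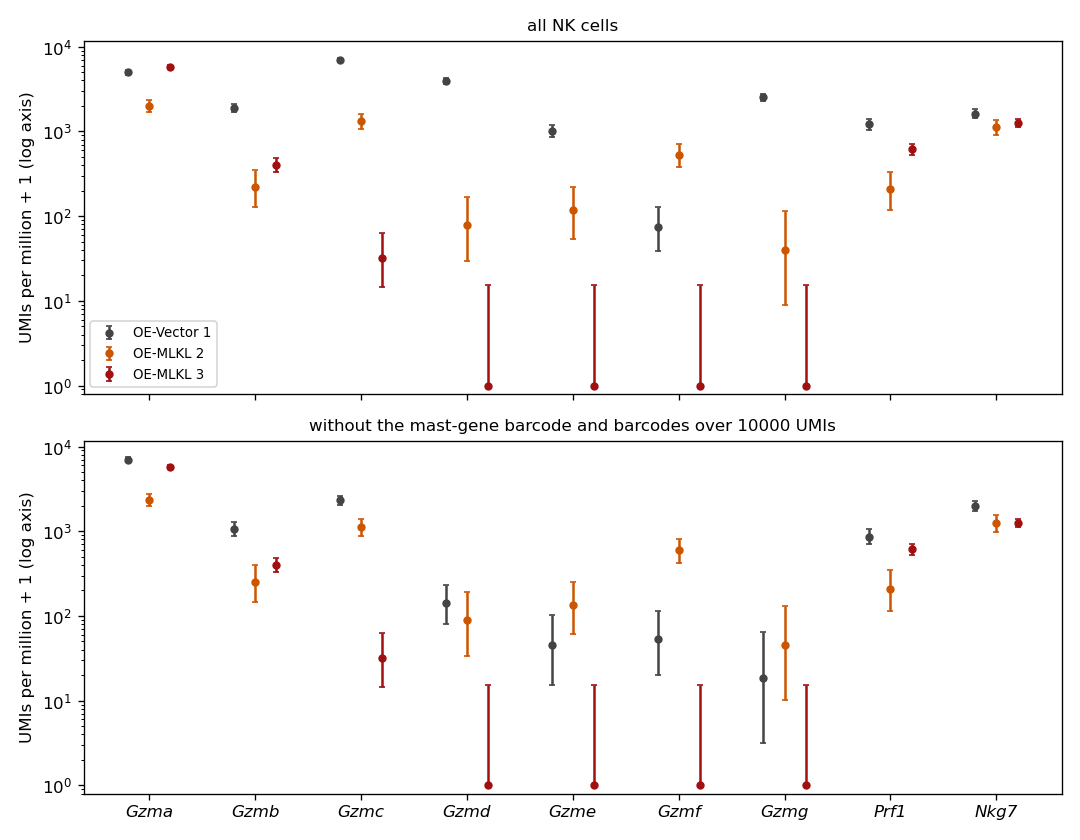
Levels of granule genes (CPM + 1, log axis) with 95% Poisson intervals in the NK cells of OE-Vector 1, OE-MLKL 2 and OE-MLKL 3, for all NK cells and without the barcode rich in mast cell genes and those over 10000 UMIs. Gzmc falls from 7023 to 2308 CPM in OE-Vector 1 when these barcodes are left out, while Gzma rises from 4968 to 6967 CPM.

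The main effector genes did not pass the test. Gzma had 810, 24, 157 and 1476 UMIs in library order, which is 4968, 4338, 2016 and 5753 CPM, and OE-Vector 1 lay within the OE-MLKL range (log2 fold change -0.71 ± 0.90). Without the mast-gene barcode and those over 10000 UMIs, OE-Vector 1 was the highest for Gzma, at 6967 CPM. Prf1 stood at 1208, 723, 205 and 612 CPM, with OE-Vector 1 above the other libraries and a log2 fold change of -1.72 ± 0.996. Gzmb stood at 1883, 0, 218 and 401 CPM, OE-Vector 1 being the highest, with a log2 fold change of -3.01 ± 0.98 (edgeR adjusted p = 0.365), and it was called lower by limma-voom, with a mean of at least 20 UMIs per library and with scaling by library size alone. Ccl5, which encodes a chemokine made by activated cytotoxic cells, stood at 5386, 0, 2889 and 10239 CPM and was called lower by limma-voom alone. Nkg7 stood at 1613, 1446, 1117 and 1263 CPM, and the 95% Poisson interval of OE-Vector 1 (1424 to 1820) lay above those of OE-MLKL 2 (895 to 1378) and OE-MLKL 3 (1129 to 1408).

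Il7r, which encodes a cytokine receptor chain, and Bst2 did not pass. Il7r stood at 18.4, 361, 180 and 160 CPM, OE-Vector 1 being the lowest, with a log2 fold change of 3.04 ± 1.14. Bst2, an interferon-induced tetherin, stood at 178, 0, 38.5 and 31.2 CPM (-2.59 ± 0.78, edgeR adjusted p = 0.163). Il7r passed when OE-MLKL 3 was left out and Bst2 when OE-MLKL 1 was.

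Across the gene lists, calls were limited to genes named above. The cytotoxic granule list had 4 of 18 tested genes lower and 0 higher, which are Gzmc, Gzmd, Gzme and Gzmg. The lists of late maturation, type 1 innate lymphoid and resident genes, TGF-beta response, other innate lymphoid cells, cell cycle and mast cells each had 1 gene lower, and these were Cma1, Gzmc, Gzmc, Il1rl1, Pclaf and Cpa3. None of 16 NK identity genes, 13 activating receptors, 9 inhibitory receptors, 11 signalling adaptors, 14 cytokine receptors, 9 cytokines and chemokines, 13 homing genes, 16 transcription factors or 9 early maturation genes passed. None passed among 5 type I interferon genes, 12 MHC class I genes, 13 immediate early and stress genes, 10 glycolysis genes or 4 necroptosis genes either, nor among the lists of T cells, B cells, macrophages, neutrophils, cancer cells, dendritic cells and stroma. The median log2 fold change of the NK identity list was -0.70, against -0.04 for all genes tested. The shares of thinned NK cells with a UMI of Nkg7, Gzma, Gzmb, Gzmc, Prf1 or Eomes differed between the groups with exact permutation p-values between 0.25 and 1, where 0.25 is the smallest possible. On simulated counts at these depths the test recovered 33 of 100 genes changed 16-fold and 3 of 100 changed 4-fold. In this comparison of 1 library against 3, most changes of either size were thus missed. The changed genes were drawn from the more abundant ones, so recovery of rarer genes was not measured.

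NK cells were then set against CD8 T cells of the same libraries, with library as a term in the model. CD8 T cells (n = 1454) had at least 2 Cd3 UMIs, at least 2 of Cd8a and Cd8b1, and 0 of Cd4, Ncr1 and Klrb1c. Genes of either rule stayed out of the calls, but genes made together with them are set apart in part by the rules. Of 7262 genes tested, 602 (8.29%) passed, 276 higher (3.8%) and 326 lower (4.49%) in NK cells. The count was 299 without OE-Vector 1 and 372 without OE-MLKL 2. Leaving out OE-MLKL 3, the library with the most NK cells, gave 106. All but Gzmd and Gzme of the 24 genes with the largest differences passed in every fit that left out 1 library and tested them. The called members of the gene lists that the naming rule chose were less stable, since 9 of 37 higher and 6 of 26 lower kept their call in every such fit.

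Receptor genes were among the largest differences higher in NK cells. Klra8 encodes the activating receptor Ly49H and had 113 UMIs in NK cells against 1 UMI in all CD8 T cells. Its levels were 196, 904, 116 and 261 CPM in NK cells in library order, against 0, 0, 0 and 0.42 CPM in CD8 T cells, so the classes did not overlap in any library. Klrb1f, Klra3 and Klra7, further receptors of the same families, were higher by 6.79 ± 0.39, 6.12 ± 0.40 and 4.50 ± 0.34 on the log2 scale (SE, edgeR). Klra genes are close paralogs, and reads may be divided among them with error.

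In the receptor lists, 7 of 13 activating receptors were higher and 1 lower, and 3 of 11 inhibitory receptors were higher and 4 lower. Klrk1, which encodes NKG2D, was higher by 1.85 ± 0.29, Cd244a, a SLAM-family receptor, by 1.27 ± 0.29 and Klrc2 by 1.12 ± 0.29. Among inhibitory receptors, Pdcd1, which encodes PD-1, was 30.7, 0, 38.5 and 15.6 CPM in NK cells against 212, 404, 265 and 232 CPM in CD8 T cells, a log2 fold change of -3.34 ± 0.45. Havcr2, which encodes TIM-3, was lower by a log2 value of -4.21 ± 0.61, with 3 UMIs in all NK cells, a ratio of 17.4 (95% counting interval 5.92 to 84.4) in favour of CD8 T cells.

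Adaptors and kinases divided between the classes, with 5 of 14 higher and 2 lower. Tyrobp, which encodes DAP12, stood at 2423, 2530, 1579 and 1742 CPM in NK cells and 444, 58.2, 102 and 293 CPM in CD8 T cells, with no overlap and a log2 fold change of 3.10 ± 0.38. Fcer1g was higher by 2.91 ± 0.38 and Syk, the kinase that follows them, by 2.98 ± 0.35. Lat and Zap70, which carry T cell receptor signals, were lower, at -2.87 ± 0.42 and -1.63 ± 0.35. Tyrobp, Fcer1g and Syk are also made by macrophages and neutrophils, whose summed lists are given above, and their part in this difference was not tested.

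Of 17 cytotoxic granule genes, 6 were higher in NK cells and 1 lower. Gzma was 4968, 4338, 2016 and 5753 CPM in NK cells and 5991, 347, 827 and 1822 CPM in CD8 T cells, so that OE-Vector 1 went against the other 3 libraries (log2 fold change 1.13 ± 0.39, edgeR adjusted p = 0.0466, lost without any one of OE-Vector 1, OE-MLKL 2 or OE-MLKL 3). Prf1 was higher by 1.16 ± 0.35 and lost its call in the same 3 fits. Gzmd and Gzme were higher by 3.56 ± 0.62 and 3.81 ± 0.39 and Gzmc by 2.14 ± 0.47, and Gzmf was lower, at -1.72 ± 0.44. Without OE-Vector 1, whose deep barcode is described above, Gzmd turned to -0.0620, and Gzme and Gzmc no longer passed. Serpinb9, which protects cells from their own granzyme B, was higher by 1.07 ± 0.34.

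The transcription factor list had 5 of 20 genes higher and 2 lower. Eomes stood at 270, 181, 154 and 195 CPM in NK cells and 33.0, 26.5, 18.5 and 26.9 CPM in CD8 T cells, with no overlap and a log2 fold change of 2.86 ± 0.28. Irf8 and Klf2 were higher by 1.41 ± 0.34 and 1.34 ± 0.29. Tox, which is known from exhausted T cells, was lower at -3.14 ± 0.44, and Ikzf2, which encodes Helios, at -2.39 ± 0.38. The NK identity list had 9 of 14 genes higher and 0 lower, with a median log2 fold change of 1.50 against -0.09 for all genes tested.

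Homing receptors and integrins, with 8 of 20 higher and 4 lower, set NK cells apart in both directions. Ccr2, a chemokine receptor for entry from blood, stood at 515, 0, 398 and 452 CPM in NK cells and 54.0, 6.92, 16.9 and 34.0 CPM in CD8 T cells, a log2 fold change of 3.64 ± 0.29 in which only the single cell of OE-MLKL 1 went against. Itgam, Itgax and Cxcr4 were higher by 1.94 ± 0.34, 3.11 ± 0.33 and 1.96 ± 0.33. Cxcr6 and Itgae, genes of resident T cells, were lower at -2.97 ± 0.42 and -3.33 ± 0.51. The resident and type 1 innate lymphoid list had 3 of 11 genes in each direction.

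Cell cycle genes were lower in NK cells for 16 of 18 tested and higher for 0, with a median log2 fold change of -1.57. Mki67, a marker of cycling cells, stood at 202, 0, 270 and 27.3 CPM in NK cells and 303, 233, 352 and 419 CPM in CD8 T cells. In OE-Vector 1 a single NK cell held 24 of the 33 Mki67 UMIs, and in OE-MLKL 2 a pair of cells held 12 and 8 of the 21. The gap was wider in OE-MLKL 3 than in those libraries, and the call of Mki67 (-1.51 ± 0.35) was lost without OE-MLKL 3. Median depth was lower in NK cells than in CD8 T cells in 3 of 4 libraries, and its part in this difference was not tested.

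Cytokine receptors had 4 of 24 higher and 2 lower, among them Il18rap (1.09 ± 0.29) and Ifngr1 (1.10 ± 0.33) higher. Cytokines and chemokines had 2 of 11 higher and 1 lower, Ccl3. Late and early maturation genes had 4 of 5 and 4 of 10 higher with 1 lower in each, Cx3cr1 among the late genes and Cd27, which is lost from mature NK cells, among the early ones (-2.32 ± 0.41). Stress genes had 3 of 14 higher and 0 lower, glycolysis genes 0 of 15 higher and 2 lower, TGF-beta response genes 2 of 10 in each direction, type I interferon genes 1 of 10 in each direction, necroptosis genes 1 of 7 higher and 0 lower, and MHC class I genes 0 of 15 in both directions. Of the lists of other cell types, 5 of 6 T cell genes, 1 of 4 cancer cell genes and 1 of 2 dendritic cell genes were lower, and 2 of 7 neutrophil genes (G0s2 and Retnlg), 1 of 4 cancer cell genes (Spp1) and 1 stromal gene (Pecam1) were higher. The call of Spp1 was lost without the mast-gene barcode and those over 10000 UMIs (edgeR adjusted p = 0.195). Macrophage, B cell and other innate lymphoid lists had none.

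Among genes lower in NK cells, Cd6, a T cell co-receptor, had 0 UMIs in NK cells and 124, 126, 138 and 202 CPM in CD8 T cells, at least 25.2-fold higher in CD8 T cells against a floor of 3 UMIs over all NK cells. Trac was lower at -5.78 ± 0.57, and Themis and Bcl11b, which act in T cell development, at -5.29 ± 0.65 and -3.70 ± 0.51. Ifi27l2a, an interferon-induced gene, was lower at -3.42 ± 0.51. Whether the gap between NK cells and CD8 T cells differed between the labelled groups was asked with an interaction term, which 5 of 7262 genes (0.0689%) passed, 2 higher (0.0275%) and 3 lower (0.0413%) in OE-MLKL.

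**Figure D5:**
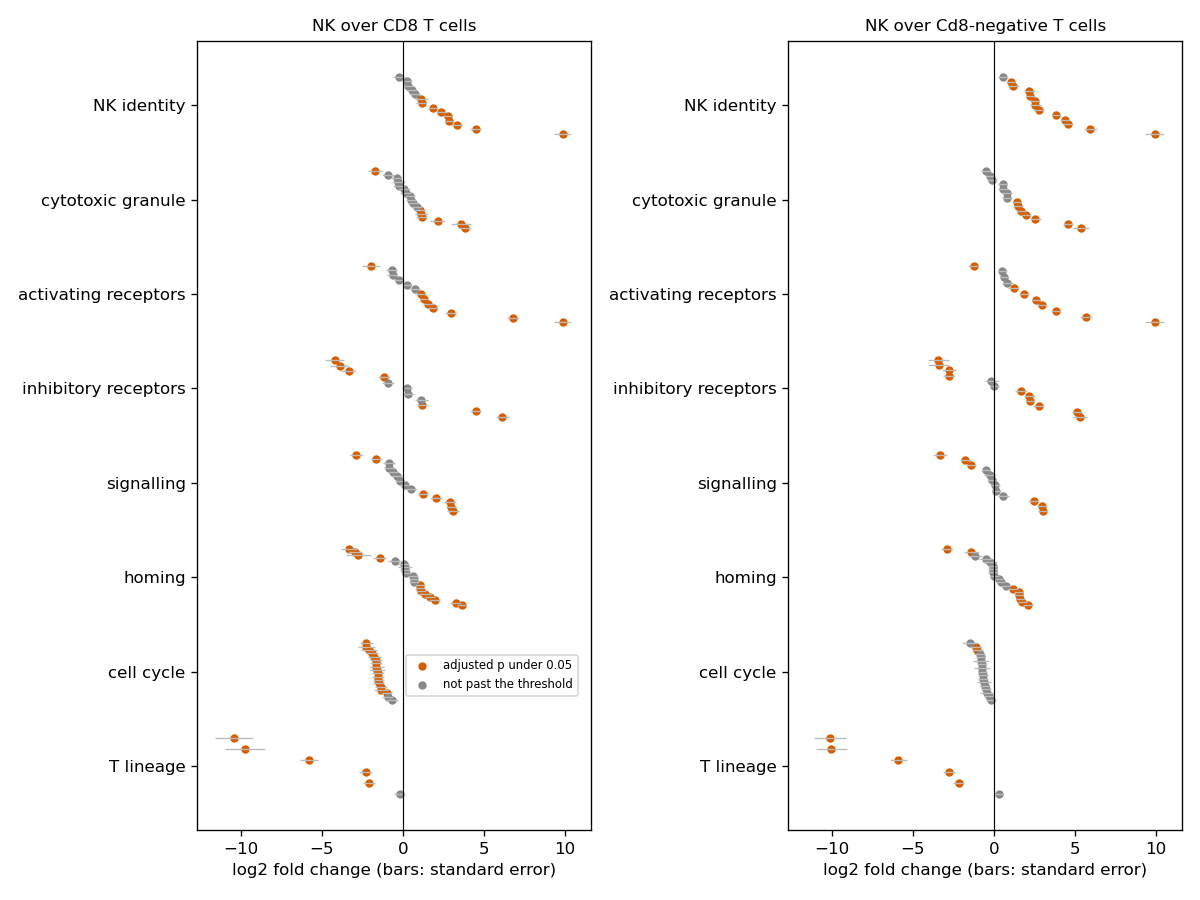
Log2 fold change with SE in NK cells against CD8 T cells (left) and Cd8-negative T cells (right) from edgeR with library as a term, 1 point per tested gene of 8 lists, orange where the adjusted p was under 0.05. NK identity genes lie mostly to the right in both panels and inhibitory receptors on both sides, cell cycle genes lie left with 16 of 18 called against CD8 T cells and 2 of 17 against Cd8-negative T cells, and the 2 points furthest left in each panel are Cd5 and Cd6, which had 0 UMIs in NK cells.

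NK cells were also set against Cd8-negative T cells (n = 1118), which had at least 2 Cd3 UMIs and none of Cd8a, Cd8b1, Ncr1 or Klrb1c. Of 5062 genes tested, 332 (6.56%) passed, 147 higher (2.9%) and 185 lower (3.65%) in NK cells. The count was 168 without OE-Vector 1 and 137 without OE-MLKL 3. Both comparisons share the NK cells, so their values are given side by side and not as support for each other. All 24 genes with the largest differences passed in each of the 4 fits that left out 1 library, as did 16 of 30 higher and 11 of 23 lower among the list members that the naming rule chose.

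Granule genes were also higher in NK cells than in these T cells, for 7 of 14 tested, and none was lower. Prf1 stood at 1208, 723, 205 and 612 CPM in NK cells and 11.1, 37.6, 48.5 and 27.1 CPM in Cd8-negative T cells, with no overlap and a log2 fold change of 4.58 ± 0.32. Gzma was higher by 2.55 ± 0.32, with 839, 303, 449 and 917 CPM in these T cells. Gzmc was higher by 5.37 ± 0.47 and passed also without OE-Vector 1.

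Of the NK identity list, 12 of 13 genes were higher and 0 lower, at a median log2 fold change of 2.55 against -0.04 for all genes. Klra8 had 0 UMIs in Cd8-negative T cells and was at least 285-fold higher in NK cells. Eomes was higher by 5.94 ± 0.39, Klre1 by 4.39 ± 0.28, Klrk1 by 3.83 ± 0.27 and Klrb1b by 5.10 ± 0.32. Activating receptors had 7 of 11 higher and 1 lower, and inhibitory receptors had 6 of 12 higher and 4 lower, with Ctla4 at -2.76 ± 0.36 and Pdcd1 at -2.78 ± 0.42 among the lower ones.

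The 12 largest differences lower in NK cells included the T cell genes Cd5, Cd6 and Trac, and also Penk, which encodes proenkephalin, and Lgals7, which encodes a galectin. Foxp3, the regulatory T cell factor, had 0 UMIs in NK cells and 87.7, 113, 133 and 163 CPM in Cd8-negative T cells, at least 19.3-fold higher there. Tnfrsf4, which encodes OX40, was at least 76.1-fold higher and Cd5 at least 38.6-fold higher. Il7r stood at 18.4, 361, 180 and 160 CPM in NK cells and 306, 517, 385 and 469 CPM in these T cells (-1.80 ± 0.32), and Il2ra was lower at -2.68 ± 0.38.

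Of the other lists, late maturation genes had 5 of 6 higher and T cell genes 5 of 6 lower. Cell cycle genes had 2 of 17 lower and 0 higher, where 16 of 18 were lower against CD8 T cells, and the difference between these counts was not tested. Adaptors had 3 of 12 in each direction, homing genes 6 of 18 higher and 2 lower, transcription factors 5 of 19 higher and 3 lower, and cytokine receptors 3 of 21 in each direction. Cytokines and chemokines had 1 of 12 higher, Xcl1, and 2 lower. Early maturation genes had 2 of 9 in each direction, and resident and type 1 innate lymphoid genes 2 of 10 higher and 3 lower. TGF-beta response genes had 3 of 9 higher and 1 lower, glycolysis genes 2 of 11 lower, MHC class I genes 2 of 15 lower and type I interferon genes 1 of 7 lower. Stress, necroptosis, B cell, macrophage, neutrophil, dendritic cell and other innate lymphoid lists had no call, cancer cell genes had 1 of 3 in each direction, the higher one being Spp1 (edgeR adjusted p = 0.248 without the mast-gene barcode and those over 10000 UMIs), and Pecam1 of the stromal list was higher.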

How the data were processed

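Single-cell RNA-seq of orthotopic KPC tumours was read from the count matrices that the authors deposited, which hold raw UMI counts per gene and barcode, unnormalised, of the 10x 3′ assay. Per the labels reads were aligned to mm10 with Cell Ranger (2.1.1 in the submitters' processing notes, 7.1.0 in the matrix headers). Of 6 labelled libraries, 4 were used.

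Barcodes were filtered and gated as described, with no doublet caller run. UMIs were summed per library and class and tested with edgeR 4.0.16 in R 4.3.3 (TMM scaling, filterByExpr, quasi-likelihood test, Benjamini-Hochberg adjusted p under 0.05 over all genes tested). OE-MLKL was compared with OE-Vector without covariates, and NK cells with T cells with library as a term. Shares were compared by exact permutation tests and given exact binomial intervals. Single UMI levels were given Poisson intervals, and intervals and floors of 3 counts cover counting error only. Alternatives were DESeq2 1.42.0, limma 3.58.1 (voom), other scalings, filters, gates, denominators and depths, and each library left out. The test was checked on simulated counts.

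Named genes were all calls where there were 20 or fewer, the 12 largest differences in each direction with at least 100 CPM in the higher class, and, in each gene list, the called and most abundant members. Gzma and Gzmc patterns, genes at 0 and genes of the other cell types were chosen after their values had been seen. The NK cell rule and the lists were chosen with earlier results of these data known. Values of some genes of the lists are not reported here, and the list counts include them.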

Additional observations from a re-analysis of the deposited data

Results flagged for a closer look

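In 5 of 7262 genes (0.0689%) the difference between NK cells and CD8 T cells itself differed between the labelled groups, by an interaction term in edgeR with library as a term, a comparison added after seeing the data. In 2 of them (0.0275%) it was higher in OE-MLKL and in 3 (0.0413%) lower, on 1 OE-Vector library.

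Gzmd and Gzme showed the largest differences with UMIs in more than 1 library, at -9.75 ± 1.32 (edgeR adjusted p = 5.41e-10) and -7.18 ± 0.87 (edgeR adjusted p = 9.52e-13) on the log2 scale. In library order NK cells held 639, 0, 6 and 0 Gzmd UMIs, whereas CD8 T cells held 13, 242, 54 and 1, so NK cells and CD8 T cells were highest in different libraries. Without the barcode rich in mast cell genes and those over 10000 UMIs, Gzmd stood at -4.69 (adjusted p = 0.0120) and Gzme at -2.46 (adjusted p = 1). Ccl1, a chemokine gene, was at -11.58 ± 2.18 (adjusted p = 0.000251) and at -2.25 (adjusted p = 1) without the mast-gene barcode, with 12, 0, 0 and 0 UMIs in NK cells and 121, 495, 464 and 445 in CD8 T cells.

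Itgax, which encodes the CD11c integrin, was at 2.97 ± 0.63 (adjusted p = 0.0048), and at 3.06 (adjusted p = 0.0135) without the deep barcodes. Its levels were 79.7, 0, 103 and 187 CPM in NK cells and 30.8, 0, 0.803 and 10.9 CPM in CD8 T cells. They rest on 13, 0, 8 and 48 UMIs in NK cells and 82, 0, 1 and 26 in CD8 T cells. Klrb1a, which encodes NKR-P1A, a relative of NK1.1, was at 3.24 ± 0.77 (adjusted p = 0.0365), and its adjusted p was 0.108 without the mast-gene barcode. It had 4, 1, 8 and 38 UMIs in NK cells and 44, 2, 10 and 24 in CD8 T cells.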

How the results depend on the processing

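The count of genes that differed between the labelled groups was the least stable result. It was 15 as reported, 6 with DESeq2, 28 with limma-voom, 0 with at least 3 receptor UMIs, 5 with each cell thinned to 1000 UMIs and between 14 and 17 with 1 library left out. It was 4 without the mast-gene barcode, 4 without that barcode and the library of 1 NK cell, 3 under a wider gate without such barcodes, and 1 when barcodes over 10000 UMIs were also left out, the last 4 chosen after seeing the data. The sets of 4 genes were not the same, since without the library of 1 NK cell Gzmc was lost and Arg1, higher in OE-MLKL, was gained. A single barcode held 41 of the 42 Arg1 UMIs of OE-MLKL 2. The 6 genes of DESeq2 were all mast cell genes. Gzme turned to 0.047 on the log2 scale when Cd3 UMIs were allowed.

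NK cells against CD8 T cells gave 602 genes, 219 with DESeq2 and between 106 and 704 with 1 library left out. NK cells against Cd8-negative T cells gave 332 genes, 183 with DESeq2, 542 with no filter on low counts and between 137 and 425 with 1 library left out. Gzmd ranged from -0.0620 (without OE-Vector 1) to 5.94 against CD8 T cells with 1 library left out, and Gzmf turned to -0.33 against Cd8-negative T cells with DESeq2. The difference in NK cell share changed sign with NK and T cells as the denominator (1.02 percentage points) and ranged from -0.192 to 0.0545 with 1 library left out (0.0117 without OE-MLKL 2). The cause of these changes was not tested, beyond the barcodes and libraries named. The interaction gave 3 genes in place of 5 without the mast-gene barcode. Of the alternative values of named genes, 303 of 347 kept their side of the threshold in the group comparison. So did 1094 of 1289 against CD8 T cells and 1051 of 1144 against Cd8-negative T cells. An alternative was counted only where the gene was still tested, so genes that dropped out were not counted as lost. Without the mast-gene barcode, 10 values were counted in the group comparison and all kept their side, while the calls fell from 15 to 4. A limit of 1000 UMIs per barcode could not change the group values, since each NK cell held at least 1101 UMIs.

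No paired analysis was possible because only replicate number 1 occurs in both groups among the libraries analysed. A single OE-Vector library, 1 NK cell in OE-MLKL 1 and 147 NK cells in all limit every group comparison.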
